A study of Mus musculus with 16 samples.

Results

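Palbociclib+rapamycin was compared with rapamycin alone in haematopoietic stem cells (HSCs), the bone marrow cells that renew all blood lineages, sorted from C57BL/6J mice. The comparison takes 8 of the 16 libraries of the study, 4 per group, and describes all 15308 expressed genes of the 50686 in the deposited count table. Mice of the palbociclib+rapamycin group received 30.4 mg/kg palbociclib and 6.4 mg/kg rapamycin, and mice of the rapamycin group received 6.4 mg/kg rapamycin without palbociclib. The palbociclib group received 30.4 mg/kg palbociclib without rapamycin, and the vehicle group neither drug. These last groups, with 4 libraries each, stand beside the comparison as the same drug added without rapamycin. All mice, vehicle included, were injected intraperitoneally with 100 µL of 20% DMSO and 40% PEG 400 in PBS every 48 h for 85 days. The labels used here state neither age nor sex. Marrow was depleted of lineage-positive cells and stained for CD150, CD48, Sca-1 and CD117, and 10000 viable HSCs in G0 or G1 went into each RNA sample. The sort takes cells in G0 or G1, so the libraries hold little direct information on cells in division. The labels do not say whether the libraries of a group came from separate mice, so p-values measure the spread between libraries, which may be technical.

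Palbociclib blocks the kinases CDK4 and CDK6. Together with a D-type cyclin these phosphorylate the retinoblastoma protein, which releases E2F factors and lets a cell pass from G1 into S phase. Rapamycin binds the protein FKBP12, encoded by Fkbp1a, and the complex inhibits mTOR complex 1, which drives ribosome production, translation and lipid synthesis and restrains autophagy. HSCs are mostly quiescent, and both pathways act on their exit from quiescence. Type I interferons act on HSCs through a receptor that activates a STAT complex with the DNA-binding subunit IRF9, and this complex binds interferon-stimulated response elements in the promoters of antiviral genes.

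Total counts of the 8 libraries ran from 10955889 to 14163950. The median correlation of a library with the other 15, in log2 CPM (counts scaled to library size, as CPM by TMM), was 0.907 to 0.931 in palbociclib+rapamycin libraries and 0.871 to 0.914 in rapamycin libraries. The lowest, 0.871, was rapamycin replicate 3, in which 16570 genes had a count, against 18778 to 20418 genes in the other 7 libraries. HSC marker genes such as Kit, Gata2, Meis1 and Hlf had counts in every library. Markers of other cells were present too. The 22 neutrophil genes, many of which are also made by early myeloid progenitors, held 1.40% to 8.06% of the counts in palbociclib+rapamycin libraries and 1.17% to 7.18% in rapamycin libraries.

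At an adjusted p under 0.05 in edgeR's quasi-likelihood test, 5 genes changed (0.0327% of the 15308 tested), 4 of them higher (0.0261%) and 1 lower (0.00653%) with palbociclib+rapamycin. Before adjustment, 832 genes (5.44%) were higher and 666 genes (4.35%) lower at p under 0.05. In 762 genes (4.98%) all 4 palbociclib+rapamycin libraries lay above all 4 rapamycin libraries, and in 593 genes (3.87%) all lay below. The counts given for gene lists stand against these shares of all tested genes. The median log2 fold change over all tested genes was -0.02. Protein-coding genes that were higher at unadjusted p under 0.05 had a median level of 6.25 log2 CPM. Those that were lower had 3.83 and all tested protein-coding genes 4.61. The median longest-transcript length of protein-coding genes was 2818 bases in the higher genes, 3591 bases in the lower genes and 3345 bases in all tested genes.

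Irf7, on chromosome 7 (chr7:141262706-141266481, minus strand, GRCm38), encodes the transcription factor that amplifies type I interferon production and rose 5.58-fold. Irf7 had 139, 87.5, 275 and 244 CPM in the palbociclib+rapamycin libraries, against 38.0, 31.2, 34.8 and 29.4 CPM in the rapamycin libraries. The groups did not overlap, and palbociclib+rapamycin replicates 3 and 4 held the highest values. Irf7 averaged 186 ± 88.0 CPM with palbociclib+rapamycin and 33.4 ± 3.82 CPM with rapamycin (SD, n = 4 each), a log2 fold change of 2.48 ± 0.40 (SE), with an adjusted p of 0.0361 in edgeR.

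Gpr4 (chr7:19212538-19224174, plus strand) encodes a G protein-coupled receptor that senses extracellular protons and rose 4.52-fold. Gpr4 had 82.4, 106, 103 and 90.8 CPM in palbociclib+rapamycin libraries, against 28.3, 18.9, 15.7 and 21.5 CPM in rapamycin libraries. Every palbociclib+rapamycin library was above every rapamycin library, and the spread within each group was small beside the gap. The log2 fold change was 2.18 ± 0.33, with an adjusted p of 0.0265 in edgeR.

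Selp (chr1:164115264-164150026, plus strand) encodes P-selectin, an adhesion molecule of platelets and endothelium whose mRNA is also known to be raised in HSCs of old mice, and rose 3.48-fold. Selp had 185, 210.0, 224 and 243 CPM in palbociclib+rapamycin libraries, against 65.9, 36.3, 75.2 and 70.6 CPM in rapamycin libraries. Again no library of a group reached the other group. The log2 fold change was 1.80 ± 0.25, with an adjusted p of 0.0197 in edgeR.

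Bhlhe40 (chr6:108660629-108666925, plus strand) encodes a basic helix-loop-helix repressor linked to the circadian clock and to cytokine responses, and rose 3.16-fold. It had 47.4, 56.3, 51.9 and 53.2 CPM in palbociclib+rapamycin libraries, against 17.9, 14.2, 11.5 and 22.5 CPM in rapamycin libraries. The groups were far apart beside their spread, 52.2 ± 3.69 CPM with palbociclib+rapamycin and 16.5 ± 4.78 CPM with rapamycin (SD, n = 4 each). The log2 fold change was 1.66 ± 0.25, with an adjusted p of 0.0245 in edgeR.

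Qk (chr17:10202601-10319854, minus strand) encodes QKI, an RNA-binding protein that governs splicing, mRNA stability and circular RNA formation, and was the gene that fell, by 1.74 on the log2 scale. Qk had 35.0, 26.7, 27.8 and 18.8 CPM in palbociclib+rapamycin libraries, against 81.1, 88.0, 108 and 83.6 CPM in rapamycin libraries. All 4 palbociclib+rapamycin values were below all 4 rapamycin values. Qk averaged 27.1 ± 6.61 CPM with palbociclib+rapamycin and 90.2 ± 12.4 CPM with rapamycin (SD, n = 4 each), with an adjusted p of 0.0197 in edgeR.

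These calls were sensitive to single libraries, although the fold changes were not. With any 1 of the 8 compared libraries left out, the log2 fold change of Irf7 lay between 2.23 and 2.72, that of Gpr4 between 2.06 and 2.35, that of Selp between 1.61 and 1.91, that of Bhlhe40 between 1.52 and 1.85, and that of Qk between -1.88 and -1.59. At the threshold, Selp and Qk passed without palbociclib+rapamycin replicate 1, Irf7 passed without palbociclib+rapamycin replicate 2, and no gene passed with any 1 of the other 6 left out. Irf7 also did not pass without vehicle replicate 2, nor without the 3 libraries of lowest correlation with the others. With limma-voom the adjusted p of Irf7 was 0.0714.

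**Figure D1:**
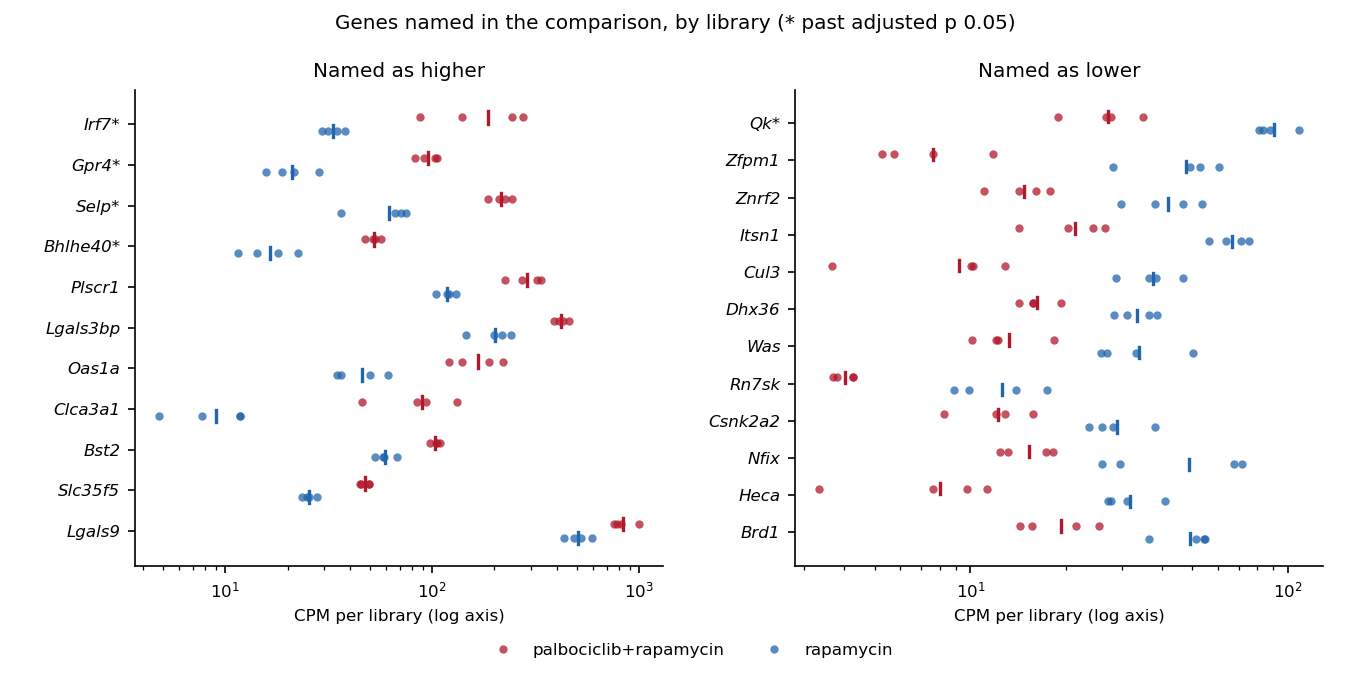
CPM per library on a horizontal log axis for 11 of the 12 genes named as higher and the 12 named as lower, with a row for each gene. Within a row, palbociclib+rapamycin points are drawn above rapamycin points, with a tick at each group mean. An asterisk marks the 5 genes past adjusted p 0.05. In every row the 4 palbociclib+rapamycin points lie wholly to the right or wholly to the left of the 4 rapamycin points, which the rule required.

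Next to the called genes, 8 genes with the smallest p among those higher with palbociclib+rapamycin did not pass the test. Antiviral or interferon-inducible genes were among them. Oas1a (chr5:120896256-120907521), an oligoadenylate synthetase that senses double-stranded RNA, averaged 167 ± 45.6 CPM with palbociclib+rapamycin and 45.7 ± 12.6 CPM with rapamycin (SD, n = 4 each), at an adjusted p of 0.0656 in edgeR. Bst2 (chr8:71534255-71537456), which encodes tetherin, a membrane protein that holds back budding virus, had 105, 104, 109 and 97.1 CPM against 67.9, 52.7, 58.5 and 57.8 CPM, at an adjusted p of 0.0745 in edgeR. Plscr1 (chr9:92249750-92272278), an interferon-inducible phospholipid scramblase, averaged 289 ± 50.4 CPM against 119 ± 11.03 CPM with rapamycin (adjusted p 0.0616 in edgeR).

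The galectin-related genes Lgals3bp and Lgals9 were also on that list. Lgals3bp, the galectin-3-binding protein, averaged 421 ± 31.3 CPM with palbociclib+rapamycin and 201 ± 40.6 CPM with rapamycin, and Lgals9, galectin-9, averaged 840.1 ± 109 CPM against 508 ± 66.3 CPM (SD, n = 4 each). Clca3a1, an accessory protein of a chloride channel, had 84.7, 45.8, 93.5 and 132 CPM with palbociclib+rapamycin, against 11.8, 7.74, 4.79 and 11.9 CPM with rapamycin. Its log2 fold change of 3.30 ± 0.59 was the largest of the 12 named higher genes, at an adjusted p of 0.0656 in edgeR. Slc35f5, a solute carrier of the nucleotide-sugar transporter family, averaged 47.2 ± 2.52 CPM against 25.3 ± 1.79 CPM (SD, n = 4 each). Adjusted p-values of these 4 genes in edgeR ran from 0.0616 to 0.0967.

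On the lower side, 11 genes followed Qk without passing the test. Zfpm1 (chr8:122282141-122337251), which encodes FOG1, the partner of GATA1 in megakaryocyte and erythroid development, had 11.8, 7.62, 5.76 and 5.27 CPM with palbociclib+rapamycin. The rapamycin libraries held 49.1, 28.0, 52.7 and 60.6 CPM of Zfpm1, and the adjusted p in edgeR was 0.0656. Proteins of ubiquitin ligases were Znrf2 (14.8 ± 2.90 CPM against 41.99 ± 10.3 CPM) and Cul3, the scaffold of cullin-3 ligases (9.19 ± 3.90 CPM against 37.6 ± 7.32 CPM). Actin and membrane traffic were represented by Itsn1, an endocytic scaffold (21.3 ± 5.41 CPM against 66.7 ± 8.37 CPM), and Was, the actin regulator mutated in Wiskott-Aldrich syndrome (13.2 ± 3.58 CPM against 34.0 ± 11.2 CPM).

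Nuclear and RNA regulators made up most of the rest of that list. Dhx36, a helicase of G-quadruplexes, averaged 16.2 ± 2.13 CPM with palbociclib+rapamycin and 33.6 ± 4.75 CPM with rapamycin. Brd1, a bromodomain protein of histone acetyltransferase complexes, averaged 19.2 ± 5.16 CPM against 49.3 ± 8.61 CPM. Nfix, a nuclear factor I transcription factor active in HSCs, averaged 15.3 ± 2.92 CPM against 48.7 ± 24.4 CPM. Rn7sk, the small nuclear RNA that holds the elongation kinase P-TEFb inactive, averaged 4.01 ± 0.302 CPM against 12.5 ± 3.97 CPM, Csnk2a2, a catalytic subunit of casein kinase 2, 12.2 ± 3.08 CPM against 29.0 ± 6.30 CPM, and Heca 7.99 ± 3.44 CPM against 31.7 ± 6.46 CPM (SD, n = 4 each). Adjusted p-values of the 11 genes in edgeR ran from 0.0656 to 0.150.

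The interferon response had more low p-values than any other list in this comparison. All 39 listed genes were tested, their median log2 fold change was 1.20 against -0.02 over all genes, and 36 of 39 were above 0. Irf7 was the called member. At unadjusted p under 0.05, 28 of 39 were higher and 0 lower, against 5.44% and 4.35% of all tested genes, and in 20 of 39 the 4 palbociclib+rapamycin libraries lay above the 4 rapamycin libraries, against 4.98% of all tested genes. The median of the list stayed between 0.60 and 1.36 over 28 alternative analyses, and was at its lowest with the erythroid and stromal shares of counts as covariates.

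Across roles, the pattern among these interferon genes was uneven, and members other than Irf7, Oas1a and Bst2 are named after their values were seen. Among the antiviral effectors, Oas2 had 57.8, 38.5, 99.8 and 86.6 CPM with palbociclib+rapamycin, against 6.71, 7.88, 4.87 and 4.35 CPM with rapamycin. Oasl2 averaged 163 ± 52.8 CPM against 51.7 ± 11.3 CPM, Ifi27, a mitochondrial interferon-induced protein, 223 ± 20.8 CPM against 84.8 ± 10.7 CPM, and Isg15, the ubiquitin-like modifier, 43.5 ± 14.6 CPM against 17.2 ± 7.59 CPM (SD, n = 4 each). Mx1, a dynamin-like antiviral GTPase, had 1.82, 0, 4.42 and 0.909 CPM with palbociclib+rapamycin and was listed at 0 in all 4 rapamycin libraries, so no fold is given.

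Values for the signalling complex itself did not pass the test. Irf9, its DNA-binding subunit, averaged 136 ± 10.4 CPM with palbociclib+rapamycin and 73.2 ± 8.27 CPM with rapamycin, and Stat2 58.2 ± 7.32 CPM against 39.2 ± 8.85 CPM, both without overlap (SD, n = 4 each). The RNA sensor Dhx58 averaged 80.8 ± 23.1 CPM against 30.9 ± 11.6 CPM, while the sensor Ifih1 averaged 7.15 ± 2.51 CPM against 9.38 ± 3.31 CPM, one of the 3 list members below 0 with Parp14 and Iigp1.

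The list's mean log2 CPM was 5.15, 4.66, 5.93 and 5.78 in palbociclib+rapamycin libraries, against 4.32, 3.93, 3.93 and 4.13 in rapamycin libraries. Palbociclib+rapamycin replicates 3 and 4 were highest, and the groups did not overlap. Those replicates also held the highest immunoglobulin shares of their group, 1.11% and 0.732% of counts, against 0.435% and 0.00308% in replicates 1 and 2, the same order of libraries as for the interferon list. They held the highest neutrophil shares too, 8.06% and 5.83% of counts, against 3.03% and 1.40% in replicates 1 and 2. In rapamycin libraries the neutrophil share was 1.17%, 7.18%, 5.32% and 6.89% and the immunoglobulin share 0.00749%, 0.0856%, 0.199% and 0.0325%. With neutrophil and B cell shares as covariates, the log2 fold change of Irf7 was 2.02 and its adjusted p 0.0363 in edgeR. Palbociclib without rapamycin had a mean log2 CPM of 4.04, 4.02, 5.55 and 5.25 for the list, against 3.93, 4.45, 3.91 and 4.31 in vehicle libraries. The immunoglobulin share of palbociclib libraries was 1.03%, 0.0434%, 1.72% and 1.26%, again in the order of their interferon values, against 0.329%, 0.692%, 1.57% and 7.43% in vehicle libraries. In rapamycin and in vehicle libraries the immunoglobulin shares did not follow the order of the interferon values. Rapamycin replicate 1 had the lowest immunoglobulin share of its group and the highest interferon mean, 4.32. The part of these shares in the interferon result was not tested beyond the fit with covariates. For the interferon list, palbociclib replicates 3 and 4 were higher than all vehicle libraries and replicates 1 and 2 were not, and the median log2 fold change of the list was 0.60, with 5 of 39 genes at unadjusted p under 0.05.

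**Figure D2:**
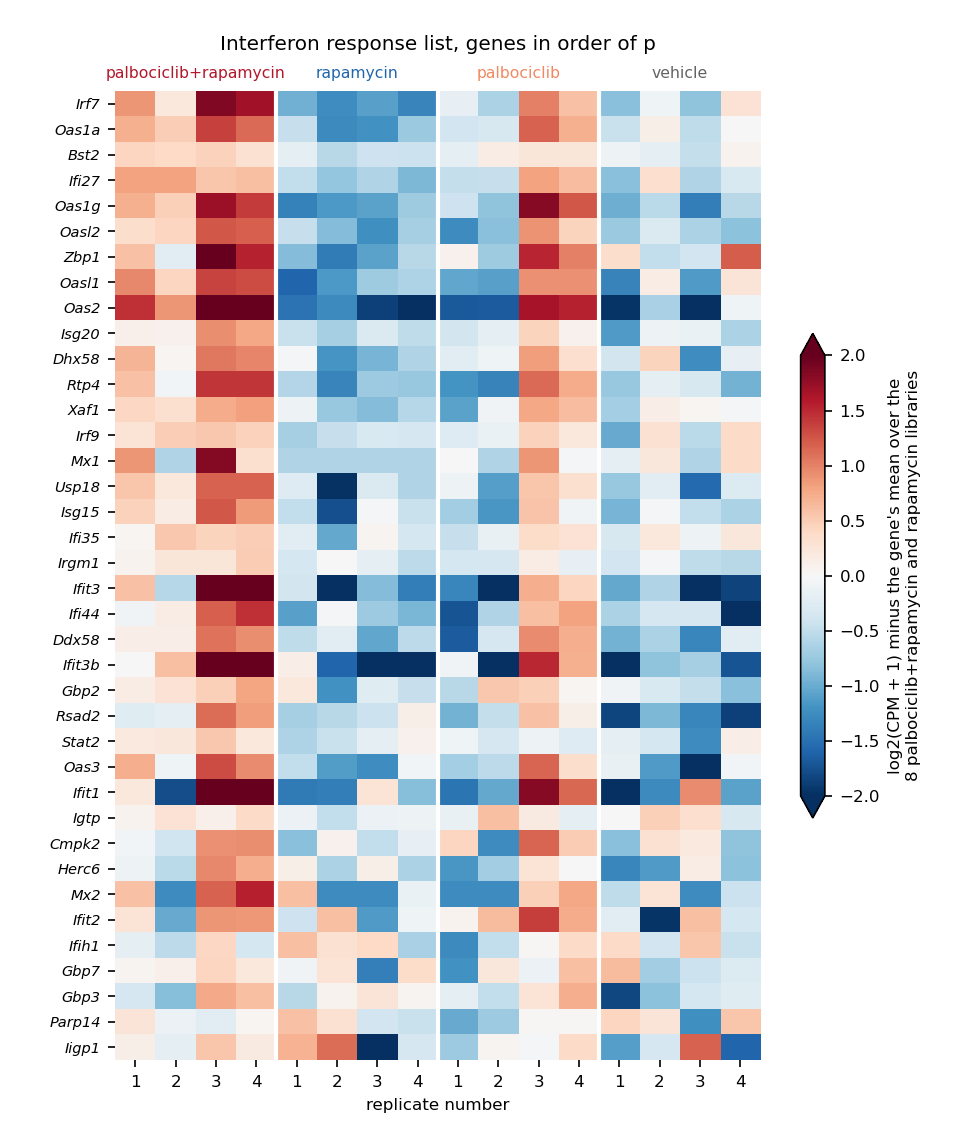
Heat map of 38 of the 39 interferon genes, in order of p, with columns for the 4 replicates of palbociclib+rapamycin, rapamycin, palbociclib and vehicle, in log2(CPM + 1) minus the gene's mean over the palbociclib+rapamycin and rapamycin libraries, with colours held at ±2. Most rows are above the mean in palbociclib+rapamycin replicates 3 and 4 and below it in the rapamycin libraries, and palbociclib replicates 3 and 4 stand above palbociclib replicates 1 and 2.

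Promoter sequences are shown for Oas1a, Bst2 and Lgals9, the genes with more than 1 match of the interferon element among the 12 named as higher, and for the chaperone gene Pdia6 of the unfolded protein response described below. The interferon-stimulated response element was searched as GAAANNGAAA on both strands, overlaps between matches allowed, in RefSeq promoters of GRCm38.p6 from 250 bases before to 50 bases after each gene start. It was present in 17 of the 28 interferon genes with a promoter sequence (60.7%), against 389 of 9945 tested genes (3.91%). It was present in 6.93% of genes higher at unadjusted p under 0.05 and in 2.99% of genes lower. The higher genes include members of the interferon list, so their share is not separate from that of the list. Capitals mark the matches, positions count back from the gene start, and the first 3 sequences lie on the minus strand of chr5:120907476-120907775, chr8:71537423-71537722 and chr11:78984875-78985174. In Oas1a overlapping matches began at -20 and -14, in Bst2 at -130 and -124, and in Lgals9 matches of the other strand began at -55 and 16. The Pdia6 promoter (chr12:17266339-17266638, plus strand) holds at -98 the endoplasmic reticulum stress element, searched by its name's consensus, CCAAT and CCACG 9 bases apart. That element was present in 7 of 17 unfolded protein response genes (41.2%), against 19 of 9945 tested genes (0.191%). Among genes higher at unadjusted p under 0.05 the stress element was present in 2 of 606 (0.33%), and among genes lower in 0 of 469. Of the other genes named above, Clca3a1 had 1 match (at -20), Isg15 3 overlapping matches from -78, Stat2 1 match (at -222) and Ifih1, whose log2 fold change was below 0, 1 match (at 33). Irf7, Gpr4, Selp, Qk, Plscr1, Lgals3bp, Slc35f5, Oasl2 and Irf9 had no GAAANNGAAA in this window, and for Bhlhe40, Ifi27, Oas2, Mx1 and Dhx58 no promoter sequence was used here.
Oas1a: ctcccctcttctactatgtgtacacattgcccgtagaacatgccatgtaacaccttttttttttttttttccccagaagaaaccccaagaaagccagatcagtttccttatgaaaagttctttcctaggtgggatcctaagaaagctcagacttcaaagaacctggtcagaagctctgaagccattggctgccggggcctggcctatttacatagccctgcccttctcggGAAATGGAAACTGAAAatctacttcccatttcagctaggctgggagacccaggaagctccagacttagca
Bst2: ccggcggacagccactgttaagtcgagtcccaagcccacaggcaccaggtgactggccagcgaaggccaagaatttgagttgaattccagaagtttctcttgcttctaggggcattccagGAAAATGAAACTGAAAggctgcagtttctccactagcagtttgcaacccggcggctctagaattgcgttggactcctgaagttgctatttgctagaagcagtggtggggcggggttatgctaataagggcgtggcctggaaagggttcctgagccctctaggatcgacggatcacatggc
Lgals9: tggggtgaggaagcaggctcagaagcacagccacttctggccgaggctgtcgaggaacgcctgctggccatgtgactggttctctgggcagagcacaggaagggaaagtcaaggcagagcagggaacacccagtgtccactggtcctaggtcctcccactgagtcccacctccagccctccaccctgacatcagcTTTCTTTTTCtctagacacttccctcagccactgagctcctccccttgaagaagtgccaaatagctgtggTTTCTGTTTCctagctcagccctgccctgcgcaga
Pdia6: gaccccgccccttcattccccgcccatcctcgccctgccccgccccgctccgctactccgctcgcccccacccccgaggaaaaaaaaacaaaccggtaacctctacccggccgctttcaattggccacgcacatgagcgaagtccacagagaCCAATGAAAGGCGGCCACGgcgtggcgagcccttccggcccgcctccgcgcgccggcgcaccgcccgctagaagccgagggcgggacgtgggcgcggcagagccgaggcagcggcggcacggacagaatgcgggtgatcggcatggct

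None of the drug target genes passed the test, and the CDK4/6 side had the higher values. Cdk6 averaged 253 ± 44.8 CPM with palbociclib+rapamycin and 134 ± 49.3 CPM with rapamycin, without overlap, a log2 fold change of 0.92 ± 0.33 at an adjusted p of 0.348 in edgeR. Within its group, palbociclib+rapamycin replicate 1 stood apart at 319.6 CPM, with the other 3 at 223 to 239.5 CPM. Cdk4 averaged 599 ± 73.5 CPM against 476 ± 40.0 CPM and Ccnd1 30.8 ± 4.90 CPM against 17.7 ± 6.56 CPM, both without overlap. Ccnd3 averaged 721 ± 175 CPM against 500.4 ± 108 CPM, with overlap (SD, n = 4 each). Ccnd2, at 358 and 355 CPM, differed by 0.01 on the log2 scale, and Rb1, which encodes the retinoblastoma protein, had 16.4 ± 3.41 CPM against 25.6 ± 11.04 CPM.

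On the mTOR side, differences were small beside the spread. Mtor averaged 23.6 CPM with palbociclib+rapamycin and 22.2 CPM with rapamycin, where rapamycin replicate 3 stood apart at 11.1 CPM against 25.6 to 26.3 CPM in the other 3. Log2 fold changes were 0.09 for Mtor, 0.23 for Rptor, which encodes the defining subunit of complex 1, -0.23 for Rictor, its counterpart in complex 2, and 0.12 for Fkbp1a. Of 26 genes of mTOR complexes and regulators, 12 were above 0 and the median was -0.01, with 1 higher and 0 lower at unadjusted p under 0.05. That 1 gene was Rraga, the small GTPase RagA that recruits mTOR complex 1 to lysosomes, at 80.1 ± 5.54 CPM against 60.0 ± 7.18 CPM (SD, n = 4 each).

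Cell cycle genes downstream of CDK4 and CDK6 had no called member. Among 23 genes of the MCM helicase and its loaders the median log2 fold change was 0.19, 18 were above 0 and 4 were higher at unadjusted p under 0.05. Cdc6, which loads the helicase at origins, averaged 86.2 ± 16.5 CPM with palbociclib+rapamycin and 45.6 ± 4.83 CPM with rapamycin, without overlap. Mcm6 averaged 559.9 ± 59.7 CPM against 435 ± 56.7 CPM, and Mcm3 402 ± 66.1 CPM against 301 ± 35.5 CPM, both with overlap (SD, n = 4 each). For 30 genes of DNA synthesis and nucleotide supply the median was 0.09, with 4 higher, among them the clamp loader subunit Rfc2 (355 ± 57.4 CPM against 258 ± 23.5 CPM), Pcna, the sliding clamp (408 ± 44.0 CPM against 313 ± 39.5 CPM), and Dck, a nucleoside salvage kinase (116 ± 39.2 CPM against 76.6 ± 19.1 CPM).

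Mitotic genes had a median below 0, with overlapping libraries and few low p-values. The median of 32 mitosis and spindle genes was -0.24, 24 of 32 were below 0, and 0 were higher and 2 lower at unadjusted p under 0.05, near the 4.35% of all tested genes. The list's mean log2 CPM was 4.89, 4.06, 5.69 and 5.30 with palbociclib+rapamycin, against 5.01, 5.68, 4.87 and 5.53 with rapamycin, so palbociclib+rapamycin replicate 3 was the highest of the 8. Cenpf, a kinetochore protein, had 6.09, 3.54, 8.74 and 6.36 CPM with palbociclib+rapamycin, against 12.3, 15.6, 13.2 and 16.5 CPM with rapamycin. Mki67, the proliferation marker Ki-67, averaged 12.8 ± 6.55 CPM against 26.6 ± 10.6 CPM, and the spindle gene Hmmr 18.1 ± 5.97 CPM against 24.95 ± 3.70 CPM (SD, n = 4 each). The list's median ran from -0.43 to 0.01 over the alternatives, and reached 0.01 without palbociclib+rapamycin replicate 2.

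The remaining cell cycle lists had medians near that of all genes. G1 cyclins and CDKs had a median of 0.01, but 5 of 16 were higher and 0 lower at unadjusted p under 0.05, against 5.44% and 4.35% of all tested genes. In 4 of 16 the palbociclib+rapamycin libraries lay above all rapamycin libraries, against 4.98%. The 5 higher genes are all named here as targets except Cdk2, the kinase of cyclins E and A (156 ± 6.54 CPM against 119 ± 19.8 CPM). E2F and DP factors had a median of -0.00 over 10 genes, and DNA repair genes of the Fanconi and homologous recombination pathways -0.01 over 20, each with 0 higher and 1 lower at unadjusted p under 0.05, E2f6 and the helicase gene Blm. CDK inhibitors and pocket proteins had a median of -0.06 over 9 genes. Cdkn1a, which encodes p21, had 192, 224, 230 and 198 CPM with palbociclib+rapamycin, against 128, 80.1, 149 and 127 CPM with rapamycin. All palbociclib+rapamycin values of Cdkn1a were above all rapamycin values, at an adjusted p of 0.225 in edgeR. Among 18 p53 targets, Cdkn1a and Aen, a nuclease (78.2 ± 0.775 CPM against 59.2 ± 6.18 CPM), were higher at unadjusted p under 0.05 and 0 were lower.

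Glycolysis had 20 of 21 genes above 0. Its median log2 fold change was 0.45, and 12 of 21 were higher and 0 lower at unadjusted p under 0.05. In 13 of 21 the groups did not overlap, against 4.98% of all tested genes. Ldha, which reduces pyruvate to lactate, had 2965, 3109, 2914 and 3283 CPM in palbociclib+rapamycin libraries, against 1996, 1624, 1659 and 1981 CPM in rapamycin libraries. Tpi1, triosephosphate isomerase, averaged 710.4 ± 83.1 CPM against 497 ± 62.6 CPM, and Pfkp, the platelet-type phosphofructokinase, 141 ± 4.93 CPM against 106 ± 15.2 CPM (SD, n = 4 each). The adjusted p-values of Ldha, Pfkp and Tpi1 in edgeR ran from 0.252 to 0.291. As a share of all counts the list held 1.22% ± 0.0418 with palbociclib+rapamycin and 0.906% ± 0.0685 with rapamycin (SD, n = 4 each). Its median ran from 0.33 to 0.51 over the alternatives.

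Nuclear genes of oxidative phosphorylation did not follow. Their median was 0.01 over 50 genes, with 1 higher, the succinate dehydrogenase subunit Sdha (731 ± 68.5 CPM against 559.6 ± 49.2 CPM), and 1 lower, the complex I subunit Ndufa5 (52.0 ± 5.02 CPM against 75.3 ± 10.2 CPM). The 13 mitochondrially encoded mRNAs had a median of -0.64, 12 of 13 were below 0, and 3 were lower at unadjusted p under 0.05.. mt-Nd4, a complex I subunit, had 152, 122, 198 and 159 CPM with palbociclib+rapamycin, against 253, 522, 124 and 275 CPM with rapamycin, and rapamycin replicate 2 was the highest of all. Without rapamycin replicate 2 the list's median was -0.25.

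No gene of protein quality control passed the test. The proteasome, which degrades ubiquitinated proteins, had 30 of 31 subunits above 0, a median log2 fold change of 0.22, 8 higher and 0 lower at unadjusted p under 0.05, and 10 of 31 without overlap, against 5.44%, 4.35% and 4.98% of all tested genes. Psmd2, a subunit of the regulatory cap, averaged 565 ± 56.5 CPM with palbociclib+rapamycin and 386 ± 28.6 CPM with rapamycin, at an adjusted p of 0.163 in edgeR. Psmd13 averaged 166 ± 8.07 CPM against 118 ± 13.9 CPM, and the ubiquitin receptor Psmd4 271 ± 23.5 CPM against 209.9 ± 4.44 CPM (SD, n = 4 each). The proteasome's mean log2 CPM was 7.80 to 7.93 in palbociclib+rapamycin libraries and 7.63 to 7.66 in rapamycin libraries.

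The unfolded protein response, which expands chaperones and folding enzymes of the endoplasmic reticulum, had a median of 0.53 over 20 genes, with 18 above 0, 7 higher and 1 lower at unadjusted p under 0.05. Pdia6, the disulfide isomerase whose promoter is printed above, had 567, 561, 838 and 715 CPM with palbociclib+rapamycin, against 378, 361, 491 and 457 CPM with rapamycin. Pdia3 averaged 1009 ± 317 CPM against 583 ± 49.4 CPM, and Manf, a secreted stress-induced factor, 206 ± 79.1 CPM against 123 ± 16.2 CPM (SD, n = 4 each). For Pdia6, Pdia3 and Manf, palbociclib+rapamycin replicates 3 and 4 were the highest of the 8 libraries, and within their group they were also highest in the mean of the interferon list and in neutrophil and immunoglobulin shares. The list's median was 0.10 with erythroid and stromal shares as covariates and 0.67 without palbociclib+rapamycin replicate 2. Heat shock chaperones of the cytosol had a median of 0.19 over 17 genes, with 2 higher, Chordc1 and Ahsa1, a co-chaperone of HSP90 (265 ± 19.2 CPM against 204 ± 22.8 CPM).

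The amino acid and ATF4 response had a median of 0.21 over 22 genes, with 6 higher and 1 lower at unadjusted p under 0.05. Vldlr, a lipoprotein receptor, had 122, 146, 137 and 155 CPM with palbociclib+rapamycin, against 18.9, 13.9, 21.4 and 15.1 CPM with rapamycin. Although the groups of Vldlr were far apart, its log2 fold change of 3.01 had an SE of 0.92 and an adjusted p of 0.292 in edgeR. That SE rests on the spread in the fit of all 16 libraries. In the edgeR fit of the 8 compared libraries alone the adjusted p of Vldlr was 0.000142. It passed in no other of the 28 alternatives. Slc3a2, the heavy chain of the large amino acid transporters, averaged 454 ± 55.3 CPM against 317 ± 53.8 CPM, and Aars, alanyl-tRNA synthetase, 149 ± 17.7 CPM against 91.97 ± 19.3 CPM (SD, n = 4 each).

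Ribosome and translation genes, the best known outputs of mTOR complex 1, had small median differences and no called member. The 80 cytosolic ribosomal proteins had a median of -0.09, with 28 above 0, 1 higher (Rpl27) and 2 lower (Rpl28 and Rps13) at unadjusted p under 0.05. Ribosome biogenesis had a median of 0.13 over 30 genes with 3 higher, all nucleolar factors, namely Pes1 (160 ± 13.9 CPM against 116 ± 10.4 CPM), Bop1 (119 ± 12.4 CPM against 80.7 ± 21.3 CPM) and Nop2 (110 ± 13.1 CPM against 78.2 ± 11.5 CPM). Of these 30 genes, 20 were above 0 and 5 were higher without overlap, against 4.98% of all tested genes. Translation factors had a median of 0.12 over 29 genes with 4 higher, against 5.44% of all tested genes, among them the helicase Eif4a1 (462 ± 20.9 CPM against 304 ± 49.4 CPM). Of the 29, 21 were above 0 and 2 were higher without overlap. The MYC network had a median of -0.04 over 11 genes, with 1 higher, Mxd1, and 1 lower, Mnt, both antagonists of MYC.

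Lipid and lysosomal genes had medians above 0 and no called member. Their counts at unadjusted p under 0.05 stand against 5.44% higher and 4.35% lower of all tested genes. Sterol synthesis had a median of 0.27 over 24 genes with 3 higher, among them the isomerase Ebp (81.1 ± 13.5 CPM against 55.4 ± 13.5 CPM) and Fdps. Fatty acid synthesis had a median of 0.26 over 14 genes with 2 higher, the regulator Srebf1 (72.2 ± 13.2 CPM against 45.2 ± 12.9 CPM) and the desaturase Scd2 (229 ± 44.0 CPM against 136 ± 47.3 CPM). Lysosome and autophagy had a median of 0.23 over 30 genes, with 5 higher and 1 lower. Ctsd, the protease cathepsin D, averaged 1086 ± 114 CPM against 705 ± 127 CPM, while the proton pump subunit Atp6v0d1 averaged 59.3 ± 6.47 CPM against 103 ± 40.8 CPM (SD, n = 4 each).

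Cytokine feedback genes were split between a few marked differences and a flat remainder. The median over 15 genes was 0.03, and 4 were higher and 0 lower at unadjusted p under 0.05, each without overlap. Pim2, a survival kinase induced by cytokine receptors, had 115, 175, 144 and 161 CPM with palbociclib+rapamycin, against 54.6, 48.7, 72.3 and 41.8 CPM with rapamycin, at an adjusted p of 0.113 in edgeR. Socs3, an inhibitor of JAK-STAT signalling, had 41.4, 41.8, 37.6 and 27.0 CPM, against 18.9, 15.5, 18.3 and 14.9 CPM (adjusted p 0.141 in edgeR). Bcl3, a nuclear cofactor of NF-kB, averaged 80.6 ± 21.5 CPM against 33.9 ± 7.79 CPM (SD, n = 4 each). The fourth gene was Stat3, named after its values were seen, at 379 ± 37.1 CPM against 229.6 ± 33.9 CPM.

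Other signalling lists were mixed. AP-1 and immediate early genes had a median of -0.07 over 26 genes, with 0 higher and 5 lower at unadjusted p under 0.05. Among the 5, Maff averaged 5.28 ± 0.470 CPM with palbociclib+rapamycin and 14.1 ± 4.24 CPM with rapamycin, the quiescence factor Klf2 15.3 ± 4.51 CPM against 31.3 ± 11.5 CPM, and the orphan receptor Nr4a1 309.7 ± 90.4 CPM against 657 ± 221 CPM (SD, n = 4 each). NF-kB and inflammatory genes had a median of 0.11 over 20 genes with 2 higher, the subunits Nfkb1 (238 ± 33.0 CPM against 124 ± 20.7 CPM) and Rela (238 ± 26.5 CPM against 162 ± 31.8 CPM), and 1 lower, the chemokine Ccl3. cAMP response genes had a median of -0.39 over 12, with Crem, a cAMP-responsive repressor, among 2 higher and Per1, a clock gene, among 2 lower. FOXO factors and targets had a median of -0.06 over 17, with 2 higher and 2 lower, and the pro-apoptotic Bcl2l11 at 96.9 ± 20.0 CPM against 60.6 ± 3.55 CPM.

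Of the genes encoding the sort markers, Ly6a stood out. Ly6a, which encodes Sca-1, had 500, 619, 793 and 705 CPM with palbociclib+rapamycin, against 204, 191, 158 and 139 CPM with rapamycin. The libraries did not overlap, but the log2 fold change of 1.92 ± 0.54 had an adjusted p of 0.265 in edgeR. Ly6a passed in 2 of the 28 alternatives. Ly6a is also known to be induced by interferon. Its log2 fold change was 0.31 with erythroid and stromal shares as covariates. Slamf1, which encodes CD150, averaged 32.8 ± 7.90 CPM against 22.02 ± 7.77 CPM, Kit, which encodes CD117, 305 ± 95.5 CPM against 455 ± 94.98 CPM, and Cd48 27.9 CPM against 18.1 CPM, all with overlap (SD, n = 4 each).

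HSC identity genes lay in both directions. The median over 38 genes was -0.14, with 14 above 0, and 4 were higher and 3 lower at unadjusted p under 0.05. The higher ones were Ly6a, the interferon-induced membrane genes Ifitm3 (1869 ± 416 CPM against 864 ± 178 CPM) and Ifitm1, and Cd34. Hlf, a transcription factor of quiescent HSCs, had 64.6, 88.8, 39.7 and 42.6 CPM with palbociclib+rapamycin, against 135, 123, 131 and 96.1 CPM with rapamycin. All palbociclib+rapamycin values of Hlf were below all rapamycin values, at an adjusted p of 0.265 in edgeR. Values were close between groups for Meis1 (187 ± 33.8 CPM against 197 ± 36.8 CPM) and Runx1 (44.7 ± 3.92 CPM against 44.8 ± 8.49 CPM), which are named after their values were seen, as is Ifitm1.

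Genes raised in aged HSCs had a median of -0.03 over 30, with 2 higher and 3 lower at unadjusted p under 0.05. Selp was the called member. Nupr1, a stress-induced chromatin protein, averaged 68.1 ± 19.2 CPM with palbociclib+rapamycin and 36.7 ± 11.1 CPM with rapamycin, with overlap, and Dnm3, a dynamin, was at or near 0 with palbociclib+rapamycin (0.0198 CPM on average) against 1.62 CPM with rapamycin. Multipotent progenitor genes had a median of 0.62 over 14, a value that moved between -0.21 and 0.82 over the alternatives. Cd34, a sialomucin that marks progenitors in mouse marrow, had 564, 866, 647 and 725 CPM, against 350, 400.4, 421 and 336 CPM. Imprinted quiescence genes had a median of -0.21 over 11 with 1 higher and 1 lower. Dlk1, a paternally expressed Notch-like ligand, had 63.7, 65.2, 149.8 and 112 CPM with palbociclib+rapamycin, against 8.46, 1.49, 0.399 and 1.58 CPM with rapamycin (log2 fold change 5.01 ± 1.18, adjusted p 0.163 in edgeR). DNA methylation genes had a median of -0.08 over 14 with 1 lower and 1 higher, the thymine DNA glycosylase Tdg.

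Markers of other cells also differed between the groups, and in RNA of a sorted population fewer cells of a type and less RNA per cell cannot be told apart. Erythroid genes had the lowest median of all lists, -2.02 over 20 genes, with 18 below 0, 8 lower at unadjusted p under 0.05 and 9 without overlap, against 3.87% of all tested genes. Hbb-bs, an adult beta globin, had 71.9, 14.6, 39.3 and 21.9 CPM with palbociclib+rapamycin, against 123, 387, 121 and 101 CPM with rapamycin. Car2, carbonic anhydrase 2, averaged 812 ± 139 CPM against 1854 ± 201 CPM, and Hba-a2, an alpha globin, 55.1 ± 42.2 CPM against 299 ± 213 CPM (SD, n = 4 each). The list held 0.149%, 0.103%, 0.0949% and 0.129% of counts with palbociclib+rapamycin, against 0.329%, 0.403%, 0.308% and 0.244% with rapamycin. On average, most of this share was Car2 in both groups, so the share chiefly reflects that gene. No erythroid marker was at 0 in all 4 libraries of either group.

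Stromal, fat and endothelial genes had a median of -1.04 over 18 tested of 22, with 16 below 0 and 3 lower at unadjusted p under 0.05, the adipocyte genes Adipoq, Car3 and Fabp4. Adipoq, which encodes adiponectin, had 5.86, 0.0681, 2.16 and 3.27 CPM with palbociclib+rapamycin, against 11.3, 18, 33.4 and 4.35 CPM with rapamycin. The list held 0.0653%, 0.0272%, 0.0213% and 0.0277% of counts, against 0.0464%, 0.0609%, 0.0736% and 0.0536% with rapamycin. With erythroid and stromal shares as covariates, 0 genes passed in edgeR and 481 were at unadjusted p under 0.05. In that fit Irf7 differed by 1.46, Gpr4 by 1.51, Selp by 1.56, Bhlhe40 by 1.79 and Qk by -1.80 on the log2 scale. The erythroid share used as a covariate was mostly Car2 in these groups. Since the erythroid shares of the groups do not overlap, that share and the treatment cannot be told apart.

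Megakaryocyte and platelet genes had a median of -0.34 over 20, with 2 higher and 6 lower at unadjusted p under 0.05, and Selp as the called member. Ppbp, a platelet chemokine, had 6.96, 3.47, 5.35 and 9.18 CPM with palbociclib+rapamycin, against 15.5, 34.4, 711 and 14.1 CPM with rapamycin, and rapamycin replicate 3 stood far above the rest. Gp6, the platelet collagen receptor, was listed at 0 in all 4 palbociclib+rapamycin libraries and had 1.07, 1.49, 32.4 and 0 CPM with rapamycin. Neutrophil genes had a median of 0.24 over 22 with 1 higher, the receptor gene Csf3r (445 ± 145 CPM against 206 ± 70.6 CPM). Monocyte and macrophage genes had a median of -0.21 over 16 with 0 in either direction at unadjusted p under 0.05 in edgeR.

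Lymphoid and mast cell lists rested on few reads or few libraries. B cell genes had a median of -1.31 over 18 with 1 lower, Vpreb3, while the immunoglobulin genes Ighm and Igkc were higher on average and overlapped widely. Immunoglobulin genes took 0.435%, 0.00308%, 1.11% and 0.732% of counts with palbociclib+rapamycin, against 0.00749%, 0.0856%, 0.199% and 0.0325% with rapamycin. They made up 26 of the 832 genes higher at unadjusted p under 0.05 (3.13%), against 92 of 15308 tested (0.601%). T and NK cell genes had a median of -1.49 over 15, with 1 higher, granzyme B (Gzmb, 10.7 ± 5.44 CPM against 0.943 ± 1.06 CPM), and 1 lower, the chemokine Ccl5. Dendritic cell and MHC class II genes had a median of -0.63 over 15, with Bst2 higher and Clec9a lower. In 4 of the 15 all palbociclib+rapamycin libraries lay below all rapamycin libraries, against 3.87% of all tested genes. This list held 0.0878% to 0.118% of counts with palbociclib+rapamycin and 0.129% to 0.239% with rapamycin, without overlap. Its mean log2 CPM was 4.06 ± 0.22 and 4.55 ± 0.28 (SD, n = 4 each). Eosinophil, basophil and mast cell genes had a median of -0.03 over 12 with 1 higher, Fcer1a, the IgE receptor alpha chain (18.8 ± 4.47 CPM against 2.25 ± 1.61 CPM). Whether these markers had a part in the differences of other genes was not tested beyond the covariate analyses given here.

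**Figure D3:**
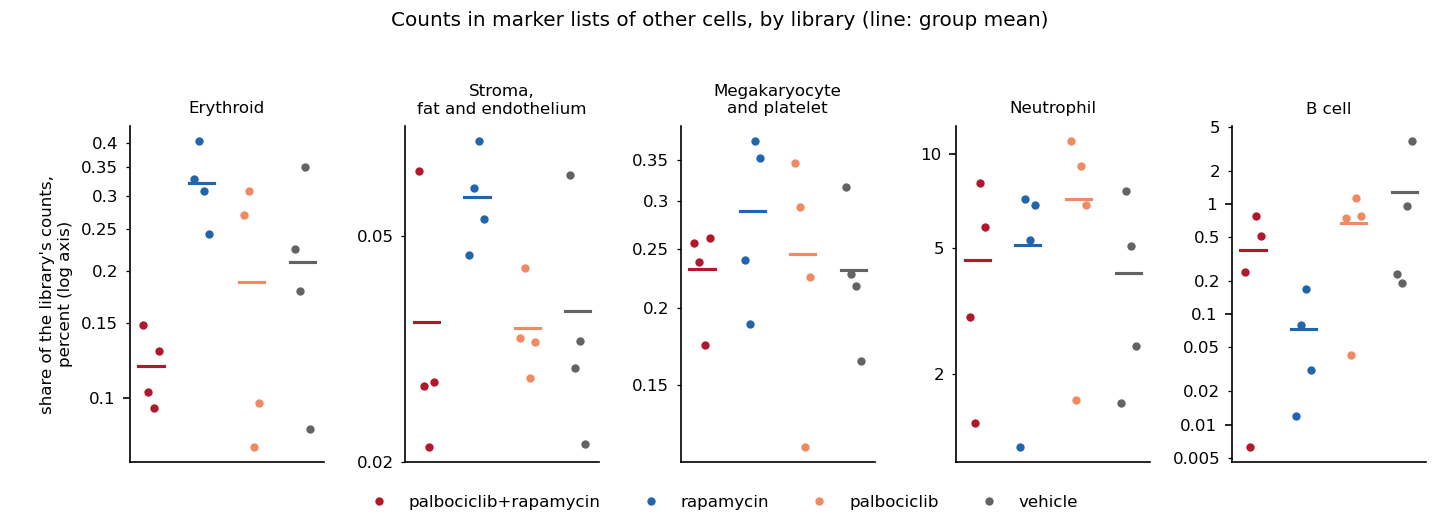
Share of counts, in percent on a log axis, of the erythroid, stromal, megakaryocyte, neutrophil and B cell lists in each library of palbociclib+rapamycin, rapamycin, palbociclib and vehicle, with a line at each group mean. Erythroid shares of 0.0949% to 0.149% with palbociclib+rapamycin lie below all rapamycin values of 0.244% to 0.403%, and the neutrophil and B cell shares overlap between the groups. In these groups the erythroid share was mostly Car2 on average.

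Palbociclib without rapamycin gave 0 called genes against vehicle (0% of 15308) in edgeR, with 668 higher (4.36%) and 788 lower (5.15%) at unadjusted p under 0.05. There 137 genes passed with DESeq2, 0 with a limma fit of log2(TPM + 1) and 0 with limma-voom. The difference of the palbociclib effects with and without rapamycin also gave 0 called genes (0%) in edgeR, with 503 (3.29%) above 0 and 365 (2.38%) below 0 at unadjusted p under 0.05, while DESeq2 called 45 and limma-voom 0. The palbociclib effects with and without rapamycin share no library. Across the 15308 genes, which are not independent of each other, their log2 fold changes correlated with a Pearson r of 0.13 and a Spearman rho of 0.22, and 58.6% had the same sign. Of the genes lower at unadjusted p under 0.05 with palbociclib+rapamycin, 515 of 666 (77.3%) were also lower with palbociclib alone, and of the higher genes 551 of 832 (66.2%) were also higher.

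The genes named as lower had the same sign with and without rapamycin. All 12 were lower with palbociclib than with vehicle, 11 of them at unadjusted p under 0.05. Qk had 34.8, 19.5, 20.5 and 32.9 CPM in palbociclib libraries, against 54.5, 53.3, 66.5 and 85.8 CPM in vehicle libraries, a log2 fold change of -1.27 ± 0.24 at an unadjusted p of 8.13e-05 in edgeR. The difference of the Qk effects was -0.46 at an unadjusted p of 0.190 in edgeR. Zfpm1 averaged 10.8 CPM with palbociclib and 43.9 CPM with vehicle, Nfix 13.3 CPM and 51.4 CPM, and Brd1 16.2 CPM and 50.03 CPM.

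Among the 12 named higher genes, 7 had the same sign with palbociclib alone. Lgals9 was higher there too at unadjusted p under 0.05, with 693 CPM with palbociclib and 545 CPM with vehicle, while Gpr4, Bhlhe40 and Slc35f5 were lower at that level. Gpr4 had 23.2, 19.9, 38.2 and 50.2 CPM in palbociclib libraries, against 63.4, 79.3, 26.6 and 51.1 CPM in vehicle libraries. Bhlhe40 averaged 43.5 CPM with palbociclib and 66.8 CPM with vehicle, and Selp 112 CPM and 153 CPM. Set side by side, the palbociclib effect on Gpr4 was 2.18 with rapamycin and -0.74 without, on Bhlhe40 1.66 and -0.62, and on Selp 1.80 and -0.46, on the log2 scale. The difference was 2.92 for Gpr4, 2.28 for Bhlhe40 and 2.25 for Selp, each at an adjusted p of 0.0510 in edgeR, which did not pass. These 3 genes passed with DESeq2-style (RLE) size factors, with a filter of 5 CPM, with no filter, and without the 3 libraries of lowest correlation. The lowest adjusted p of any gene was 0.0666 with limma-voom, 0.0934 with neutrophil and B cell covariates, 0.179 with the replicate block, 0.191 with limma on log2(TPM + 1) and 0.423 with erythroid and stromal covariates. With 1 library left out it ran from 0.00661 without vehicle replicate 3 to 0.164 without palbociclib replicate 3. For Irf7 the effect was 2.48 with rapamycin and 0.62 without, and the difference had an adjusted p of 0.577 in edgeR.

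Followed the other way, the 5 genes per direction with the smallest p for palbociclib against vehicle, among genes without overlap of those groups, all had the same sign when palbociclib was added to rapamycin, and 5 were at unadjusted p under 0.05. Jpt2, a microtubule-associated protein, had 244, 323, 327 and 293 CPM with palbociclib, against 190, 165, 172 and 210.3 CPM with vehicle. In the other 8 libraries Jpt2 had 318, 327, 300.1 and 348 CPM with palbociclib+rapamycin, against 222, 176, 185 and 234 CPM with rapamycin, log2 fold changes of 0.69 without rapamycin and 0.66 with it. Pmepa1, an inhibitor of TGF-beta and androgen signalling, averaged 2.41 CPM with palbociclib and 14.9 CPM with vehicle, but 4.46 CPM with palbociclib+rapamycin and 6.85 CPM with rapamycin. The difference of the Pmepa1 effects was 2.00 at an unadjusted p of 0.00587 and an adjusted p of 0.644 in edgeR.

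**Figure D4:**
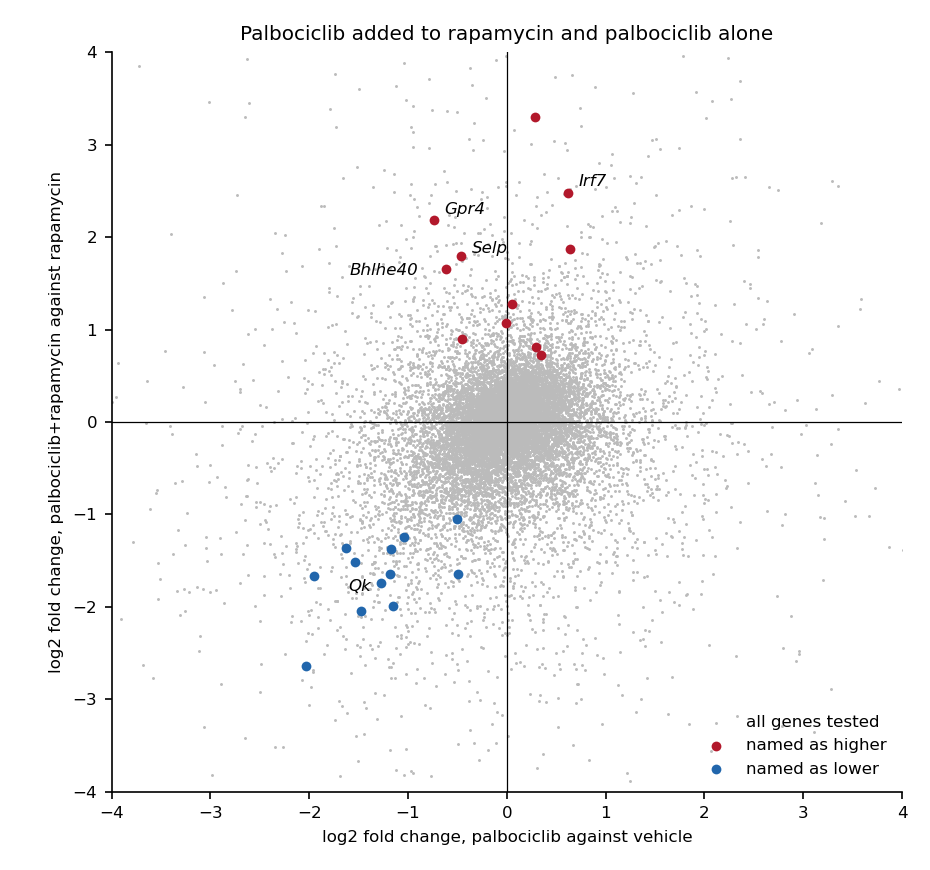
Log2 fold change of palbociclib+rapamycin against rapamycin (vertical axis) and of palbociclib against vehicle (horizontal axis) for each tested gene, with 11 of the 12 named higher genes in red, the 12 named lower genes in blue, the 5 called genes labelled and axes held at ±4, which leaves out 224 genes. Genes named as lower lie in the lower left, Irf7 in the upper right, and Gpr4, Bhlhe40 and Selp in the upper left.

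Gene lists are given with both palbociclib effects side by side. Mitosis genes had a median log2 fold change of -0.24 with rapamycin and 0.64 without, where 31 of 32 were above 0, and 8 of 32 had a difference of the effects below 0 at unadjusted p under 0.05, against 2.38% of all tested genes. Mki67 averaged 27.2 CPM with palbociclib and 13.1 CPM with vehicle, and its difference of effects had an unadjusted p of 0.00319 in edgeR. DNA synthesis genes had medians of 0.09 with rapamycin and 0.41 without, with 6 of 30 differences below 0, and MCM genes 0.19 and 0.49, with 0 of 23. Mitochondrially encoded mRNAs had -0.64 with rapamycin and 0.34 without, with 5 of 13 differences below 0.

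Cytokine feedback genes were at 0.03 with rapamycin and -0.36 without, with 6 of 15 differences above 0 at unadjusted p under 0.05, against 3.29% of all tested genes. Socs3 averaged 23.1 CPM with palbociclib and 41.1 CPM with vehicle, and its difference had an unadjusted p of 2.25e-05 in edgeR. Cdkn1a averaged 126 CPM with palbociclib and 189.9 CPM with vehicle, opposite in sign to the comparison with rapamycin, and its difference had an unadjusted p of 0.000211 in edgeR. Interferon genes had medians of 1.20 and 0.60, with 7 of 39 differences above 0. Glycolysis had 0.45 and 0.18, the proteasome 0.22 and 0.20, and the AP-1 list -0.07 and -0.51. Erythroid genes had -2.02 with rapamycin and 0.10 without, with erythroid shares of 0.0768% to 0.308% in palbociclib libraries and 0.0844% to 0.351% in vehicle libraries.

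**Figure D5:**
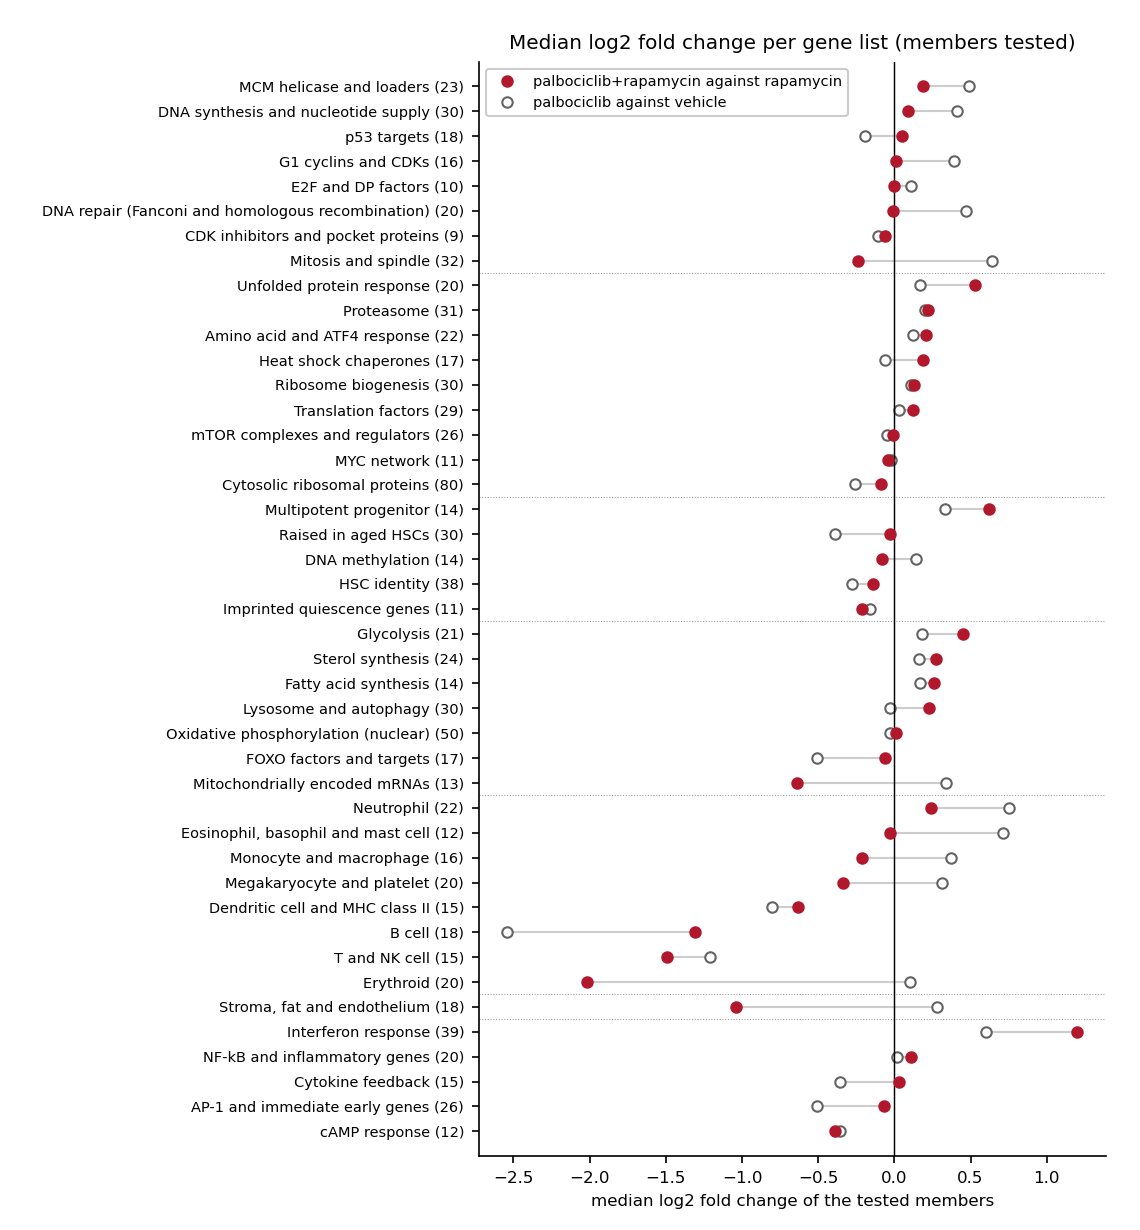
Median log2 fold change of each of the 43 gene lists, members tested in brackets, for palbociclib+rapamycin against rapamycin (filled) and palbociclib against vehicle (open). Among pathway lists, interferon lies highest for palbociclib+rapamycin against rapamycin (1.20) and just below mitosis genes for palbociclib against vehicle (0.60). Mitosis genes lie on opposite sides of 0 (-0.24 and 0.64), and the erythroid list is at -2.02 with rapamycin and 0.10 without.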

How the data were processed

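RNA of 16 libraries, 4 per group, was sequenced after low-input total RNA amplification. Per the submitters' processing notes, STAR 2.5.3a, RSEM 1.3.0, SAMtools 1.3 and mm10 were used, with no annotation release named. From these the authors deposited RSEM expected counts per gene as whole numbers, and also log2(TPM + 1) values, whose TPM sums were 999999 to 1000001 per library. Total counts ran from 10133860 to 15328830, and counting error is small beside the spread between libraries. Groups came from the labels, and replicates of a group were separate libraries, which the labels do not say came from separate mice.

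Quasi-likelihood F tests of edgeR 4.0.16 (R 4.3.3) were run on the expected counts with TMM scaling and a filter on low counts (minimum count 10, minimum total 15), in 1 fit of the 16 libraries (residual degrees of freedom 12). Benjamini-Hochberg adjusted p under 0.05 made a call. The biological coefficient of variation was 55.8%. CPM are TMM-scaled, and list means of log2 CPM used a prior count of 2. The edgeR fit of palbociclib+rapamycin against rapamycin was tested on simulated counts with known changes, drawn with the dispersions fitted to these data. Symbols and coordinates came from GENCODE M21 (GRCm38) for 50462 of 50686 IDs, with 224 unmatched, and promoters from RefSeq GRCm38.p6. Near-identical copies (globins, Oas1 genes, immunoglobulins, class I and ribosomal protein genes) can share reads, and strand use in counting is not given in the sources used here, so their values are uncertain.

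Named genes were up to 12 per direction past the threshold by fold change, without overlap of the groups and above a mean of 1 log2 CPM, filled to 12 by smallest p, together with the drug target genes, the sort markers, 3 genes of smallest p per described list, and the 5 genes per direction of smallest p for palbociclib against vehicle without overlap of those groups. The comparison, the 43 lists and the rules were chosen with earlier results of these data known. A few of these genes are not reported here. Alternatives were DESeq2 1.42.0, limma 3.58.1 (voom and log2(TPM + 1)), other scaling and filters, marker shares as covariates, a replicate block and leaving out libraries. The covariate fit with erythroid and stromal shares was added after seeing the data.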

Additional observations from a re-analysis of the deposited data

Results flagged for a closer look

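In 6 of 112 groups of 4 libraries tested, 1 library stood further from the others than Dixon's 95% limit allows, where chance flags about 1 in 20 groups. Cdk6 was 319.6 CPM in palbociclib+rapamycin replicate 1, with the other 3 libraries of that group at 223.4 to 239.5 CPM. Slamf1 was 21.07 CPM in palbociclib+rapamycin replicate 3, with the others at 35.13 to 38 CPM, and Pcna was 342 CPM in palbociclib+rapamycin replicate 2, with the others at 423.9 to 435.3 CPM. Mtor was 11.09 CPM in rapamycin replicate 3, with the others at 25.6 to 26.25 CPM. The stromal, fat and endothelial list took 0.06527% of counts in palbociclib+rapamycin replicate 1, with the others at 0.02125% to 0.02769%. Haemoglobin genes took 0.1317% of counts in rapamycin replicate 2, with the others at 0.03575% to 0.04756%.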

How the results depend on the processing

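The 5 calls of palbociclib+rapamycin against rapamycin kept their direction in all 28 alternatives (27 for Selp, which 1 of them leaves out as a lineage gene). The number of calls was 16 with no filter on low counts, 10 with at least 5 CPM in 4 libraries, 205 with DESeq2, 13 with limma on log2(TPM + 1), 10 with neutrophil and B cell shares as covariates, 56 with a fit of the 8 compared libraries alone and 0 with erythroid and stromal shares as covariates. It ran from 0 to 16 with 1 library left out (0 without palbociclib+rapamycin replicate 3 or 4 or any rapamycin library, 1 without palbociclib+rapamycin replicate 2, 2 without replicate 1, 10 without palbociclib replicate 2 and 16 without vehicle replicate 3). The correlation of deviations between same-numbered palbociclib+rapamycin and rapamycin libraries was -0.21 to 0.06, and 3 of 8 libraries correlated best with their own number, so the numbers were not taken as pairs. Between other groups it was 0.014 to 0.248 for rapamycin and vehicle, 0.010 to 0.348 for palbociclib+rapamycin and palbociclib, and -0.118 to 0.087 for palbociclib and vehicle, so not every pair was over 0.1 in any of them. With the replicate block 11 genes passed in that comparison, 1 for palbociclib against vehicle and 0 for the difference of the effects. Palbociclib against vehicle gave 137 calls with DESeq2, 1 without the 3 libraries of lowest correlation, and 0 to 0 with 1 library left out. The difference of the effects gave 3 calls with RLE size factors, 4 with no filter, 3 with at least 5 CPM, 45 with DESeq2, 3 without the 3 libraries of lowest correlation and 0 to 5 with 1 library left out.

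Of 158 named genes, 145 kept their sign in every alternative. Ccnd2 was -0.00 with no filter, -0.01 with at least 5 CPM, -0.06 without the 3 libraries of lowest correlation and -0.05 to 0.16 with 1 library left out. Mtor was -0.32 with limma on log2(TPM + 1), -0.13 without those 3 libraries and -0.13 to 0.23 with 1 left out. With 1 left out Rictor ran from -0.50 to 0.13, Fkbp1a from -0.01 to 0.26 and Cd48 from -0.18 to 0.90. With erythroid and stromal covariates Cd48 was -1.20, Cdkn1c 0.22, Meg3 -0.19, Car2 0.08, Cxcr2 -0.44, Mmp8 -0.34, Flt3 -0.52 and Hdc -0.01, and with neutrophil and B cell covariates Ighm was -0.28 (all log2 fold changes). Car2 is itself a member of the erythroid list and Ighm of the B cell list, so their values are not independent of those covariates. The causes were not tested. Low counts limit genes near 0, such as Dnm3 and Gp6.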
